A study of Liolaemus parthenos with 3 samples.

Results

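Endogenous retroviruses (ERV) are described here in 3 tissues, brain, ovary and liver, taken from a single adult of Liolaemus parthenos, a South American lizard that reproduces without males. The members are the 4 rows of the deposited subfamily table whose name starts with LTR/ERV, of 31 rows in all, and the 8 assembled transcripts with such a name, of 480 in the quantification files. The rows are LTR/ERV/ERV1, LTR/ERV/ERV2, LTR/ERV/ERV3 and LTR/ERV, the last for copies with no subfamily. The study set out to try a pipeline for transposable elements on RNA of a species without a reference genome. The animal was taken from the wild, the labels name no treatment, and each tissue gave 1 library of total RNA, so the 3 groups come from the same animal and differ in tissue. The libraries carried no strand information, so ERV reads and reads of a gene on the opposite strand cannot be told apart. The files name no host genes, so the labelled tissues could not be checked against cell type markers. Fewer cells of a type and less RNA per cell cannot be told apart in such bulk samples.

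An endogenous retrovirus is the inherited copy of a retrovirus that entered the germ line. A complete copy carries the genes gag (the capsid), pol (reverse transcriptase and integrase) and often env (the envelope) between long terminal repeats (LTR) that hold its promoter, and most old copies have decayed or survive as a lone repeat. ERV1 groups copies related to gammaretroviruses, ERV2 those related to betaretroviruses and ERV3 those most like spumaviruses. In mammals these copies are largely silenced by DNA methylation and histone marks, and some families are read in germ cells and early embryos.

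The subfamily table has columns named Brain, Ovary and Liver. It held 5468656 reads for Brain, 1143616 for Ovary and 1717904 for Liver, assigned to retrotransposons and dominated by SINE3, a short element derived from 5S ribosomal RNA genes. The quantification files held 16405 reads for brain, 4651 for the ovary-record library and 10644 for the liver-record library. The file attached to the ovary record is named for the liver and the file attached to the liver record for the ovary. Table values are therefore given by column and file values by record. The ERV3 reads of files and columns are set side by side here. The liver-record file held 4136 ERV3 reads, while the whole ERV3 row of the Liver column held 723 and that of the Ovary column 9592. Of the 16 subfamilies in the files, ERV3 was the single one in which the liver-record file exceeded the Liver column, and none exceeded the Ovary column. The ovary-record file exceeded no row of either column, with 277 ERV3 reads, and the brain file exceeded no row of the Brain column, with 4441 ERV3 reads against 8402. Whether the reads of a file are part of those of a column is not given in the labels, and no value was used to reassign a library. Statements that set brain against both others do not depend on which is ovary and which is liver. With 1 library per tissue there is no replicate spread and no test, and the 95% intervals cover counting error only.

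ERV2 was the most abundant LTR row of the Liver column and a minor one elsewhere. It had 6624 reads for Brain, 4775 for Ovary and 68760 for Liver. As shares of all table reads these were 0.121% (95% Clopper-Pearson interval 0.118 to 0.124), 0.418% (0.406 to 0.430) and 4.003% (3.97 to 4.03). Among the 12 LTR rows it held place 7 in the Brain and Ovary columns and place 1 in the Liver column, where it took 60.6% of LTR reads, against 3.73% in the Brain and 3.64% in the Ovary column. ERV3 ran the other way. It had 8402, 9592 and 723 reads in the Brain, Ovary and Liver columns, or 0.154%, 0.839% and 0.0421% of the reads. Its Liver value was the lowest and its Ovary value the highest, with intervals that did not meet.

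ERV1 spread least between columns. Its 18798, 13242 and 8454 reads made 0.344% of the Brain, 1.16% of the Ovary and 0.492% of the Liver column. ERV without a subfamily was the rarest of the 4 in each column, with 271 reads for Brain, 2093 for Ovary and 68 for Liver. Its share was 0.183% (0.175 to 0.191) in the Ovary column. The Brain share of 0.00496% (0.00438 to 0.00558) and the Liver share of 0.00396% (0.00307 to 0.00502) had overlapping intervals, so no order between these columns was detectable for this row at this depth. In the Brain column the order of shares was ERV1, ERV3, ERV2 and ERV without a subfamily. The Ovary column had the same order, and in the Liver column it was ERV2, ERV1, ERV3 and ERV without a subfamily. Neighbours in each of these orders lay further apart than their counting intervals.

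**Figure D1:**
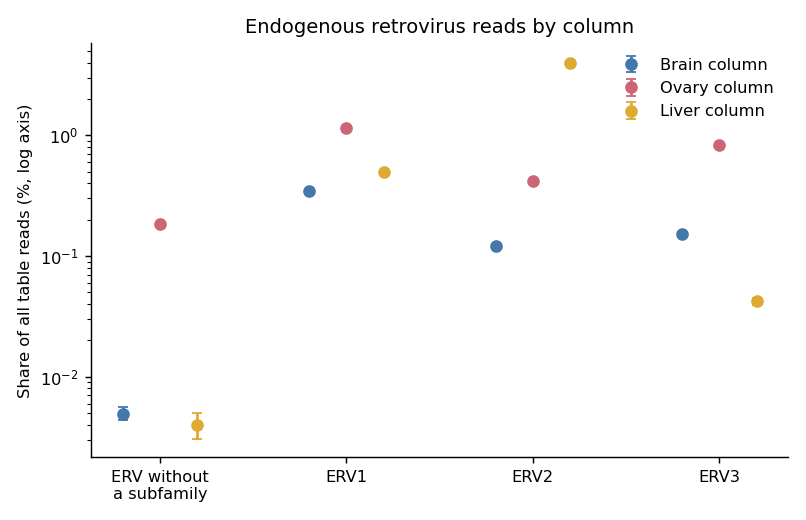
Share of all table reads (%, log axis) for the 4 ERV rows in the Brain, Ovary and Liver columns; points are single libraries and bars the 95% Clopper-Pearson interval. ERV2 reaches 4.003% in the Liver column, and ERV3 is lowest there with 0.0421%.

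Within the ERV reads, the make-up does not depend on the total of the column or on SINE3. ERV1 made up 55.1% (54.6 to 55.7) of ERV reads in the Brain, 44.6% (44.0 to 45.2) in the Ovary and 10.8% (10.6 to 11.1) in the Liver column. ERV2 made up 19.4%, 16.1% and 88.1%. ERV3 made up 24.6%, 32.3% and 0.927%. ERV without a subfamily added 0.795%, 7.05% and 0.0872%. In the counts, Brain and Ovary columns thus shared an ERV1-led profile, and the Liver column was almost wholly ERV2. In the authors' deposited log2 CPM, ERV1 did not lead the Ovary column, where ERV1 minus ERV3 was -0.18. Set against each other, ERV3 had 1.27 reads per ERV2 read for Brain (1.23 to 1.31), 2.01 for Ovary (1.94 to 2.08) and 0.0105 for Liver (0.00976 to 0.0113). ERV2 had 0.352 reads per ERV1 read in the Brain and 0.361 in the Ovary column, with overlapping intervals (0.343 to 0.362 and 0.349 to 0.373), and 8.13 in the Liver column (7.95 to 8.32). In the counts the ERV1-to-ERV2 proportion was therefore not told apart between the Brain and Ovary columns by counting error, although in the authors' deposited log2 CPM ERV2 minus ERV1 was -1.68 in the Brain and -0.74 in the Ovary column. ERV1 had 2.24 reads per ERV3 read for Brain (2.18 to 2.296), 1.38 for Ovary (1.34 to 1.42) and 11.7 for Liver (10.8 to 12.6).

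**Figure D2:**
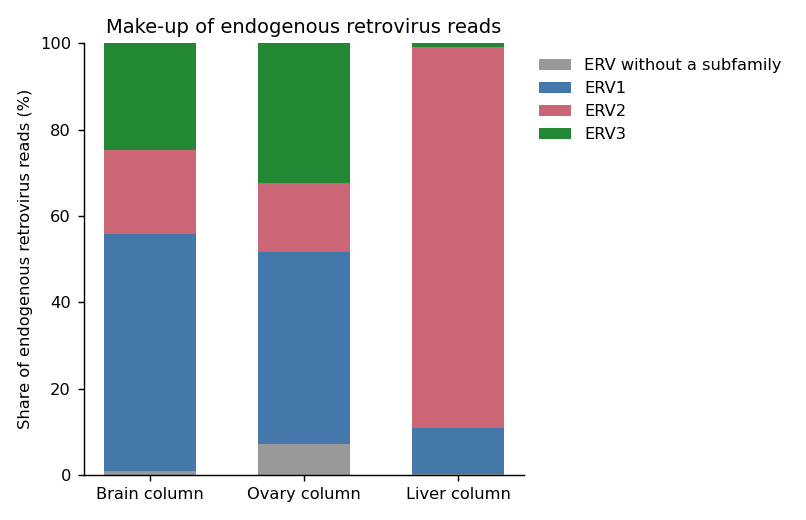
Share of ERV reads (%) held by each of the 4 rows in the Brain, Ovary and Liver columns, 1 library each. ERV1 leads in the Brain (55.1%) and Ovary (44.6%) columns, and ERV2 takes 88.1% in the Liver column.

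The comparisons between columns asked how the retrotransposon profile differed between tissues. A row was called higher or lower when its share differed at least 2-fold, the pair of libraries summed to at least 20 reads and the 95% interval of the ratio lay wholly above or below 1. The authors' deposited log2 CPM gave no interval, so calls there rest on the fold and the read minimum alone. All 4 ERV rows were called lower in the Brain than the Ovary column, where 48.4% of the 31 rows were. Their median log2 ratio was -2.12, against -1.03 over all rows and -1.15 over the other 8 LTR rows, of which 4 were called lower (Pao, Copia, DIRS and Gypsy). These 8 include BEL (0 and 1 reads) and unclassified LTR (4 and 2), under the 20-read limit. CER8 had 23 and 6 reads. The rest had log2 ratios of -3.34 (Copia), -2.80 (Pao), -1.58 (Gypsy), -1.04 (DIRS) and -0.74 (Ngaro). Copia and Pao thus lay below ERV1 (-1.75), ERV2 (-1.79) and ERV3 (-2.45). The 31 rows likewise include rows under the read limit. With SINE3 left out of the total, 2 of the 4 ERV rows were lower, ERV3 and ERV without a subfamily, where 16.7% of 30 rows were. ERV1 and ERV2 were then 1.29-fold (1.26 to 1.32) and 1.32-fold lower (1.27 to 1.37). Within LTR reads alone, ERV1 and ERV2 had log2 ratios of 0.068 and 0.034 for brain over ovary. ERV3 was still 1.55-fold lower (1.502 to 1.59) within LTR reads, and ERV without a subfamily 10.5-fold lower (9.21 to 11.9). Under TMM factors 2 of the 4 were lower, where 16.1% of the rows were, and the same numbers held under median-of-ratios factors and at a fold limit of 4 (16.1% each). Within LTR reads 1 of 4 was lower (16.7% of the 12 LTR rows), and in the authors' deposited log2 CPM 3 of 4 (22.2% of 27 rows). Among the 28 rows with enough reads, ERV without a subfamily had the lowest ratio of shares, 36.9-fold lower. In the authors' deposited log2 CPM it was 3.12-fold lower, with a difference of -1.64, and that of Pao was -2.00.

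Between the Brain and the Liver column, ERV3 was called higher, where 19.4% of the rows were, and ERV2 lower, where 19.4% were. The ratio of ERV2 was the lowest of 28 rows and that of ERV3 the third from the top. ERV1 was 1.43-fold lower (1.40 to 1.47), and the ratio of ERV without a subfamily, 1.25 (0.956 to 1.66), gave no direction. Without SINE3, ERV3 and ERV without a subfamily were called higher, where 63.3% of the rows were, and ERV2 was the only row of the table called lower (3.33%). ERV3 was then 6.69-fold higher (6.198 to 7.23), against 3.65-fold with all reads. ERV without a subfamily was 2.29-fold higher (1.75 to 3.04). The direction of ERV1 turned with the total, to 1.28-fold higher (brain over liver) without SINE3 and 1.42-fold higher within LTR reads. Both of these totals include ERV2. It held 25.5% of the reads without SINE3 and 60.6% of LTR reads in the Liver column, against 1.41% and 3.73% in the Brain column. A total without ERV2 was not tried. Within LTR reads 2 ERV rows were higher (58.3% of the 12 rows), at a fold limit of 4 none was (6.45% of the 31 rows), and in the authors' deposited log2 CPM 2 were lower (11.1% of 27 rows). Of the other 8 LTR rows, 1 was called higher (Gypsy) and 1 lower (Copia), or 5 and 0 without SINE3.

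Between the Ovary and the Liver column, 3 ERV rows were called higher, where 54.8% of the rows were, and ERV2 was the single row called lower (3.23%). Of the other 8 LTR rows, 4 were called higher (Pao, Copia, DIRS and Gypsy) and 0 lower. By their ratios, ERV rows stood at both ends of the table. Of 26 rows with enough reads, ERV without a subfamily had the highest ratio of shares, ERV3 the next and ERV2 the lowest. In the authors' deposited log2 CPM, ERV without a subfamily was 2.11-fold higher, below ERV3 (9.96-fold), Gypsy (5.33-fold) and Pao (3.53-fold). Without SINE3, ERV3 was 14.0-fold (13.0 to 15.1) and ERV without a subfamily 32.5-fold higher (25.5 to 42.0), where 43.3% of the rows were called higher, and ERV2 13.6-fold lower (13.3 to 14.1), where 6.67% were called lower. ERV1 was 2.35-fold higher with all reads. Its log2 ratio was 0.73 without SINE3 and turned to -0.25 under TMM factors, -0.057 under median-of-ratios factors and -1.20 in the authors' deposited log2 CPM. In the authors' deposited log2 CPM 2 ERV rows, ERV1 and ERV2, were lower, where 18.5% of 27 rows were. Each direction of this comparison would turn if the labels of these libraries were swapped.

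**Figure D3:**
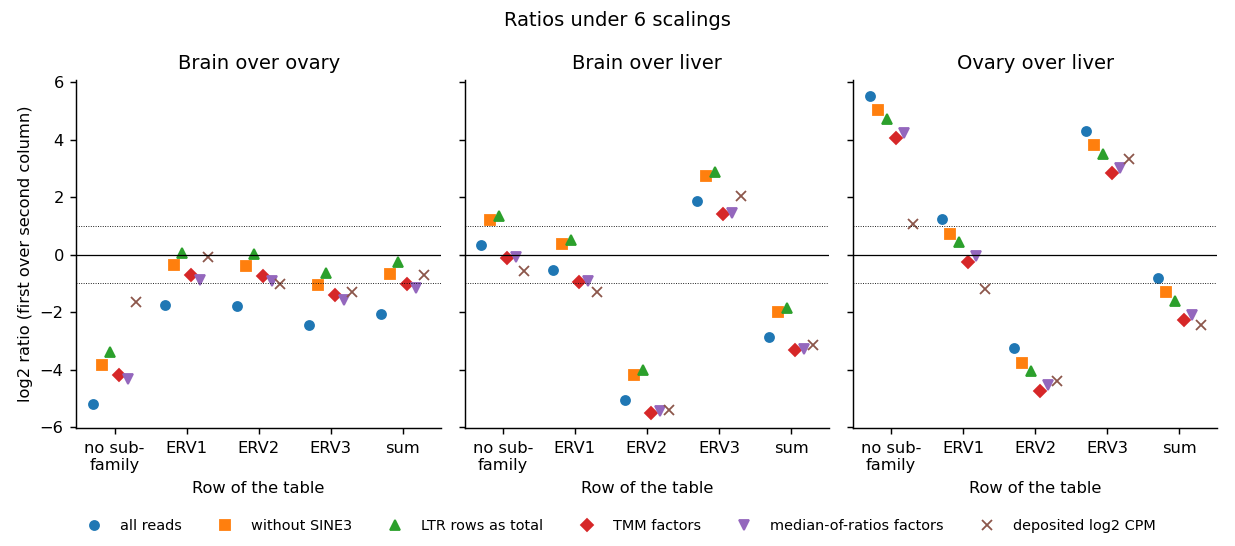
Log2 ratio of the first over the second column for the 4 ERV rows and their sum, for 3 pairs of columns, with each marker a scaling of the same libraries; dotted lines mark the 2-fold limit. ERV2 lies below -3 in both comparisons with the Liver column under every scaling shown, while ERV1 crosses 0.

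The summed ERV share was 0.623% for Brain, 2.60% for Ovary and 4.54% for Liver, so the Liver column ranked first by the sum. That place rested on ERV2. With ERV2 left out, the log2 ratio of the sum was 2.02 for ovary over liver, against -0.81 with it, and -0.099 for brain over liver, against -2.86 with it. For brain over ovary it was -2.12 without ERV2 and -2.06 with it.

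The authors' deposited log2 CPM of ERV1 was 12.05, 12.13 and 13.33 in the Brain, Ovary and Liver columns. That of ERV2 was 10.37, 11.40 and 15.79, that of ERV3 11.03, 12.31 and 8.997, and that of ERV without a subfamily 6.53, 8.17 and 7.09. These values were not a rescaling of the deposited counts by column, since proportions inside a column differed as well. ERV1 lay 0.18 below ERV3 in the authors' deposited table for the Ovary column, where the counts put it 0.47 above on the log2 scale.

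The rows most like each ERV row were ranked by the distance between log2 shares centred over the 3 columns, among 27 other rows. The nearest to ERV1 was L1, a LINE that codes for its own reverse transcriptase, at 0.46, followed by Vingi, another LINE, at 0.55. The nearest to ERV3 were Gypsy, an LTR retrotransposon related to retroviruses, at 1.05, and Penelope at 1.17. ERV without a subfamily lay nearest to ERV3, at 1.95, and to Pao, an LTR retrotransposon, at 2.003. ERV2 had no close neighbour: RTEX at 2.57 and CR1 at 2.70, both LINEs, were the nearest. These distances rest on 3 values a row and carry no test.

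The authors' list of element names shows how many assembled sequences stand behind each row. Of 19207 named transcripts, 497 were ERV: 266 of ERV1, 172 of ERV2, 30 of ERV3 and 29 without a subfamily. These were 7.89% of the 6302 LTR transcripts, whereas ERV rows held 19.2% of LTR reads for Brain, 22.7% for Ovary and 68.8% for Liver. ERV3 stood on the fewest assembled components, the groups of transcripts that the assembler takes for 1 gene. It had 7, each with 2 to 6 transcripts, whereas ERV1 had 148, ERV2 88 and ERV without a subfamily 14. Several transcripts were found in 26.4% of ERV1, 39.8% of ERV2 and 28.6% of unassigned ERV components, beside 21.7% of the other LTR components and 15.6% of all 14723. No ERV component held a second element name. Divided by the number of named transcripts, ERV3 had 280 table reads per transcript for Brain, 320 for Ovary and 24.1 for Liver. ERV2 had 38.5, 27.8 and 399.8, and ERV1 had 70.7, 49.8 and 31.8. Neither these values nor the shares of LTR reads above take account of transcript length.

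Of the 497 named ERV transcripts, 8 were in the quantification files: 7 of ERV3 and 1 of ERV2. ERV1 and ERV without a subfamily had 0 there, so the files say nothing of these rows. The ERV3 transcripts came from 2 components. TRINITY_DN3462_c0_g1_i4, of 5332 bases, was 1 of the 6 named transcripts of its component, while all 6 of component TRINITY_DN6071_c0_g1, of 3004 to 3336 bases, were present. They were long for these files, where the median transcript had 284 bases, and TRINITY_DN3462_c0_g1_i4 was the third longest. TRINITY_DN92387_c2_g2_i2, the ERV2 transcript, had 588 bases and was alone in its component. A complete retrovirus is longer than any of these.

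The 8 ERV transcripts took a large part of the reads of the files: 27.1% in brain (26.4 to 27.8), 32.1% in the ovary-record library (30.7 to 33.4) and 39.1% in the liver-record library (38.2 to 40.1). The other 47 LTR transcripts took 5.90%, 3.20% and 2.25%. These shares depend on which transcripts the files hold. They held 2.49% of the 19207 named transcripts, but 23.3% of those of ERV3 and 1.24% of those of SINE3. In the subfamily table the summed ERV share was 0.623% for Brain, 2.60% for Ovary and 4.54% for Liver. TPM, which divides by length, gave the ERV transcripts 2.36%, 23.8% and 7.39%, and the other LTR transcripts 4.69%, 3.03% and 3.19%. By TPM the ERV transcripts thus held less than the other LTR transcripts in brain, and more in both other libraries. In the ovary-record library 1214 of the 1491 ERV reads lay on the ERV2 transcript of 588 bases, and it ranked first by TPM.

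The ERV2 transcript had most of its reads in the ovary-record library. It had 9 reads (475 TPM) in brain, 1214 (232156 TPM) in the ovary-record library and 31 (4449 TPM) in the liver-record library. By reads and by TPM it ranked first of 480 in the ovary-record library, whereas its TPM ranked 388 in brain and 46 in the liver-record library. Its share was 476-fold lower in brain than in the ovary-record library, with a lower bound of 249.8 from the 9 reads, and 5.31-fold lower in brain than in the liver-record library (2.47 to 12.7). It was 89.6-fold higher in the ovary-record library than in the liver-record library (62.8 to 132). This transcript is 1 of 172 named for ERV2. In the table the whole ERV2 row was far higher in the Liver column than in the others. In the files this 1 transcript was far higher in the ovary-record library, whose file is named for the liver.

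The ERV3 components differed in where their reads lay. TRINITY_DN3462_c0_g1_i4 had 3638 reads (17267 TPM) in brain, 58 (906 TPM) in the ovary-record library and 1122 (14173 TPM) in the liver-record library. Its share in brain was 17.8-fold higher than in the ovary-record library (13.7 to 23.5). It was 2.10-fold higher there than in the liver-record library (1.97 to 2.25), though 1.22-fold by TPM. Component TRINITY_DN6071_c0_g1 had 803 reads (5853 TPM) in brain, 219 (5305 TPM) in the ovary-record library and 3014 (55249 TPM) in the liver-record library. Its share in brain (4.89%) and in the ovary-record library (4.71%) did not differ beyond counting error, with a ratio of 1.04 (0.894 to 1.21), and was 5.78-fold lower in brain (5.35 to 6.26) than in the liver-record library.

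**Figure D4:**
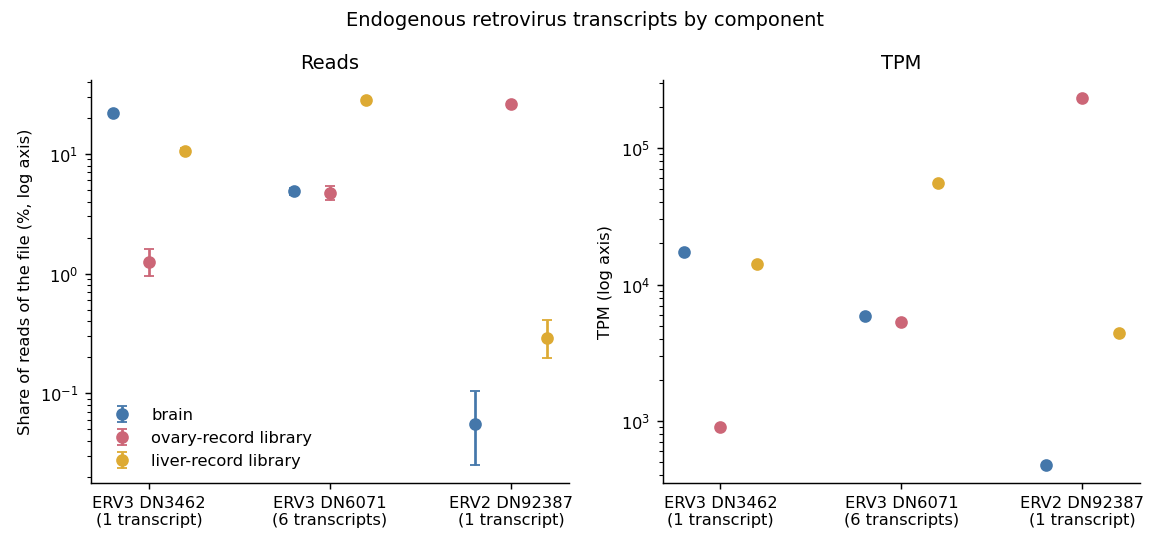
Share of the reads of a file (%, log axis, left) and TPM (log axis, right) of the 3 components that hold ERV transcripts, in brain and in the ovary-record and liver-record libraries; bars are 95% Clopper-Pearson intervals. Each component has another leading library: DN3462 brain, DN6071 the liver-record library (28.3% of reads) and DN92387 the ovary-record library (26.1%). DN3462 stands on 1 of its 6 named transcripts, and its lead in brain over the liver-record library is 1.22-fold by TPM.

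The ERV3 reads of the files were thus divided unlike between libraries. TRINITY_DN3462_c0_g1_i4 supplied 81.9% of the ERV3 reads of the files in brain (80.8 to 83.0), against 20.9% in the ovary-record library (16.3 to 26.2) and 27.1% in the liver-record library (25.8 to 28.5). By TPM it supplied 74.7%, 14.6% and 20.4%. Brain stood apart from both others in this, whichever of them is ovary. The intervals of the other libraries met only between 25.8% and 26.2%, which does not show that their shares were equal. Summed over both components, ERV3 took 27.1% of reads in brain, 5.96% in the ovary-record library and 38.9% in the liver-record library. In brain the sum was 4.55-fold higher than in the ovary-record library (4.02 to 5.15), and 1.44-fold lower than in the liver-record library (1.38 to 1.498), or 3.003-fold lower by TPM. The ERV3 row of the table had a lower share in the Brain than the Ovary column and a higher one than in the Liver column. Both directions are thus opposite between columns and files when the files are taken by record. By the names of the files, which are crossed for ovary and liver, both directions are the same. The files held 7 of the 30 named ERV3 transcripts, so a part is set here against the whole row. The totals behind the shares also differ, with SINE3 dominant in the columns.

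Taken singly, 2 of the 8 ERV transcripts were called higher and 2 lower in brain than in the ovary-record library, where 8.12% and 2.71% of the 480 transcripts were. Between brain and the liver-record library 1 was higher and 6 were lower, where 14.4% and 4.58% were. Between the ovary-record and liver-record libraries 1 was higher and 7 were lower, where 4.38% and 4.38% were. The higher one in the first 2 of these comparisons was TRINITY_DN3462_c0_g1_i4, joined in the first by TRINITY_DN6071_c0_g1_i6, and in the last it was the ERV2 transcript, while all 7 ERV3 transcripts were lower. The 6 transcripts of component TRINITY_DN6071_c0_g1 are taken by the assembler for forms of 1 gene and are not independent. The split of reads among them is an estimate by the authors' software. The percentages over all 480 transcripts include transcripts under the read minimum, which could not be called. Only 445 had reads in brain, 262 in the ovary-record library and 290 in the liver-record library. In the ovary-record library 28 reads gave place 27, and in the liver-record library 31 reads gave place 32. A comparison with transcripts of like read number was not made.

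Within that component TRINITY_DN6071_c0_g1_i1, the longest at 3336 bases, led in each library, with 332.5 reads in brain, 123.6 in the ovary-record library and 1612 in the liver-record library. It took 41.4% of the component in brain (38.0 to 45.0), 56.4% in the ovary-record library (49.8 to 63.3) and 53.5% in the liver-record library (51.7 to 55.3). Brain lay below both others for this transcript. TRINITY_DN6071_c0_g1_i7 took 23.3%, 12.8% and 14.9% in the same order, and TRINITY_DN6071_c0_g1_i8 took 17.6%, 13.4% and 14.3%. TRINITY_DN6071_c0_g1_i6 had 91.5 reads in brain, 0 in the ovary-record library and 109.5 in the liver-record library, which made it at least 8.60-fold higher in brain than the ovary-record library with the zero set at a floor of 3 reads (exact 95% lower limit 6.85). TRINITY_DN6071_c0_g1_i3 had 50.7, 38.2 and 197.9 reads in the same libraries. TRINITY_DN6071_c0_g1_i4 had 0 reads in brain and in the ovary-record library and 212.8 in the liver-record library. With its zeros set likewise, its share was 109-fold lower in brain and 31.0-fold lower in the ovary-record library than in the liver-record library. The exact 95% lower limits were 88.2 and 25.0. At that floor a count of 0 stands for a share of 0.0183% of the reads in brain and 0.0645% in the ovary-record library. The Clopper-Pearson intervals reach 0.0225% and 0.0793%.

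**Figure D5:**
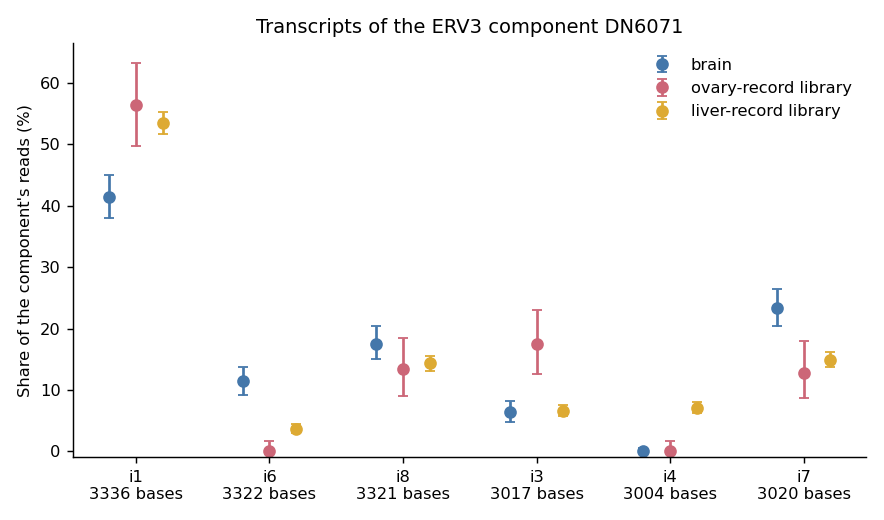
Share of the reads of the ERV3 component DN6071 (%) held by each of its 6 transcripts, with their lengths, in brain and in the ovary-record and liver-record libraries; bars are 95% Clopper-Pearson intervals. Transcript i1 leads in each, and i4 has reads in the liver-record library alone.

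The 6 transcripts fell into 2 length classes, 3 of 3004 to 3020 bases and 3 of 3321 to 3336 bases. The longer class held 70.4% of the component's reads in brain (67.1 to 73.5), 69.8% in the ovary-record library (63.3 to 75.9) and 71.4% in the liver-record library (69.8 to 73.0). These intervals overlapped, so no difference in the balance of the length classes was detectable at this depth although single transcripts differed.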

How the data were processed

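Per the labels' protocols, tissues of 1 wild-caught animal were kept in RNAlater, an RNeasy kit gave the RNA, and unstranded TruSeq libraries were run on a HiSeq instrument. Bowtie2 2.3.4.1 appears in the submitters' processing notes with no role given; the assembler and annotation are not given in the sources. The authors deposited estimated counts per subfamily, a log2 CPM table of unstated scaling (base 2 taken from the values), and, per the file headers, estimated counts and TPM per assembled transcript in the column layout of Salmon. TPM sums over these transcripts alone.

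Shares were computed from the deposited estimated counts, rounded to whole reads for exact Clopper-Pearson 95% intervals and exact conditional binomial intervals of ratios (Python 3.11.15, scipy 1.17.1; checked on simulated data). Intervals cover counting error only: reads carried no molecular identifiers, so they are not independent molecules, and uncertain assignment is left out. TMM factors came from edgeR 4.0.16. All 4 rows and 8 transcripts are named, with the 2 rows nearest to each ERV row. A component is the transcript name up to its gene field. Other totals, fold limits of 4, read minimums of 0 and 200, TPM and a 500-base limit were tried; the share of the DN3462 transcript by TPM was added after seeing the data. The members and lists were chosen with earlier results of these data known.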

Additional observations from a re-analysis of the deposited data

How the results depend on the processing

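The summed ERV share kept its direction for brain over ovary and brain over liver under all alternatives run. For brain over ovary its log2 ratio was -2.06, and -0.68 without SINE3, -0.24 within LTR reads, -1.03 with TMM and -1.18 with median-of-ratios factors, -0.70 in the deposited log2 CPM, -1.96 without the row that has no subfamily and -2.12 without ERV2. For brain over liver it was -2.86, and -1.99, -1.84, -3.32, -3.27 and -3.13 under the same first 5 settings and -0.099 without ERV2. For ovary over liver it was -0.81, and -1.32, -1.60, -2.29, -2.10 and -2.43, with -0.91 without the row that has no subfamily; it turned to 2.02 without ERV2.

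The 4 ERV rows called lower in the Brain than the Ovary column became 3 in the deposited log2 CPM and 1 within LTR reads. They became 2 without SINE3, with TMM or median-of-ratios factors, or at a fold limit of 4. For brain over liver, 1 higher became 2 without SINE3 or within LTR reads and 0 at a fold limit of 4, and 1 lower became 2 in the deposited log2 CPM. For ovary over liver, 1 lower became 2 in the deposited log2 CPM. The 3 rows called higher in this comparison fell to 2 under each scaling other than all reads. The same fall to 2 was seen at a fold limit of 4. ERV1 was the row that was no longer called higher. A minimum of 0 or 200 reads left each of these counts unchanged. Of single rows, ERV1 and ERV2 turned for brain over ovary within LTR reads (0.068 and 0.034), and ERV1 for ovary over liver with TMM (-0.25), median-of-ratios factors (-0.057) and the deposited log2 CPM (-1.20). For brain over liver, ERV1 and ERV without a subfamily were not called with all reads. There ERV1 turned from -0.52 to 0.36 without SINE3 and 0.51 within LTR reads, totals that both include ERV2. ERV without a subfamily turned from 0.32 to -0.13 with TMM, -0.084 with median-of-ratios factors and -0.57 in the deposited log2 CPM.

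The ERV transcripts' share of file reads, 27.1% in brain, 32.1% in the ovary-record library and 39.1% in the liver-record library, was 2.36%, 23.8% and 7.39% by TPM, 38.2%, 42.2% and 45.8% among transcripts of at least 500 bases, and 6.36% in brain and 32.0% in the liver-record library without the DN3462 transcript. The share of that transcript in ERV3 reads was 74.7%, 14.6% and 20.4% by TPM. Apart from shifts set by the total, the cause was not tested. No paired analysis was possible because each tissue has 1 library and the result comes from no test.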
